A study of Mus musculus with 6 samples.

Results

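The genes described here make up the machinery that forms, breaks down and reads cyclic AMP (cAMP): phosphodiesterases, adenylyl cyclases, the subunits of protein kinase A (PKA), A-kinase anchoring proteins, and Creb1, Crem, Gpr161, Rgs2 and Sik1. They were chosen by gene symbol alone, and 59 of the 24413 gene rows of the deposited table met the rule: 22 phosphodiesterases, 10 cyclases, 6 PKA subunits, 16 anchors and the 5 genes just named. Their transcripts were measured by RNA-seq in testicular interstitial cells called W-EGFP cells, from FLE-EGFP mouse fetuses at E16.5, whose EGFP is driven by the fetal Leydig cell enhancer of Nr5a1. One group was exposed for 1 hour to 0.5 µM SAG, a synthetic agonist of Smoothened, the membrane protein that passes on the Hedgehog signal, and the other for the same time to its vehicle DMSO, with 3 libraries of 10000 cells in each group. The column names of both groups also carry "siCnt", which the labels do not explain, so a control siRNA common to all cells is possible but not stated. The EGFP transgene marks the cells of both groups alike. Separate animals or cultures are not stated for the replicates, so the p-values rest on the spread among these libraries alone.

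cAMP is made from ATP by adenylyl cyclases, most of which answer to G proteins, and is destroyed by phosphodiesterases. It releases the catalytic subunits of PKA from a pair of regulatory subunits, and anchoring proteins hold the kinase at particular places in the cell. In Hedgehog signalling PKA acts as a brake: it phosphorylates Gli proteins near the primary cilium and favours their repressor forms, and the ciliary receptor Gpr161 feeds that brake by raising cAMP. In steroid-making cells of the testis cAMP is the main signal downstream of luteinizing hormone.

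Values are signals, that is, the authors' CPM with a scaling factor for each library, and the value after ± is the SD (n = 3 libraries in each group). The SAG libraries held 7693274 to 8804281 reads on genes and the DMSO libraries 18486396 to 25491259, so low genes were counted less precisely after SAG. Reads on the spike-in control rows were 111, 54 and 1205 in SAG replicates 1 to 3 and 0 in each DMSO library. Any difference in library handling between the groups cannot be told apart from the treatment, and its part was not tested. SAG replicate 3 stood apart from the other SAG libraries: Rn45s, a ribosomal RNA gene, took up 1.67% of its reads, and 0.326% to 0.360% in each of the other 5. In that library genes with longer transcripts also lay lower relative to its group mean (Spearman correlation of -0.22 across genes, given as a description, since genes are not independent replicates). Machinery genes whose call turns on this library are therefore given with and without it, as are their total counts. Gli1, the transcription factor gene that Hedgehog signalling induces, was higher in all 3 SAG libraries, with a signal of 32.6, 46.3 and 30.8 with SAG, against 0.704, 0.324 and 0.846 with DMSO. In bulk RNA, fewer cells of a type and less RNA per cell cannot be told apart.

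The anchors and PKA subunits that passed the test all fell, while cyclases and phosphodiesterases that passed lay in both directions. Of the 59 genes, 46 had a mean signal of at least 1 and were tested. With SAG 5 of the 46 rose (10.9%) and 10 fell (21.7%) in limma at a p under 0.05 after Benjamini-Hochberg (BH) adjustment, against 12.9% and 16.6% of all 12550 genes tested, so the share that changed was close to that of genes at large. The genes that rose were Adcy2, Adcy6, Pde4b, Pde9a and Rgs2. Pde9a and Rgs2 had DMSO means under 1 and were tested only because their SAG values brought the mean over all libraries to 1 or more, so their place in this count rests in part on the filter. The genes that fell were Akap2, Akap5, Akap9, Akap11, Akap12, Prkar1b, Prkar2a, Pde1b, Pde4d and Adcy4. The median log2 fold change, SAG minus DMSO, was -0.05 over the 46 and -0.03 over all genes tested. All 3 SAG libraries lay above all 3 DMSO libraries for 9 of the 46 and below them for 13 (19.6% and 28.3%), against 21.2% and 26.8% of all genes tested. Without SAG replicate 3 the counts were 12 higher and 15 lower (26.1% and 32.6%), against 19.7% and 27% of genes tested in that fit, and all 15 genes that passed with every library passed there in the same direction. With edgeR on the recovered reads 8 were higher and 10 lower (17.4% and 21.7%), against 15.2% and 14.5% of genes.

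**Figure D1:**
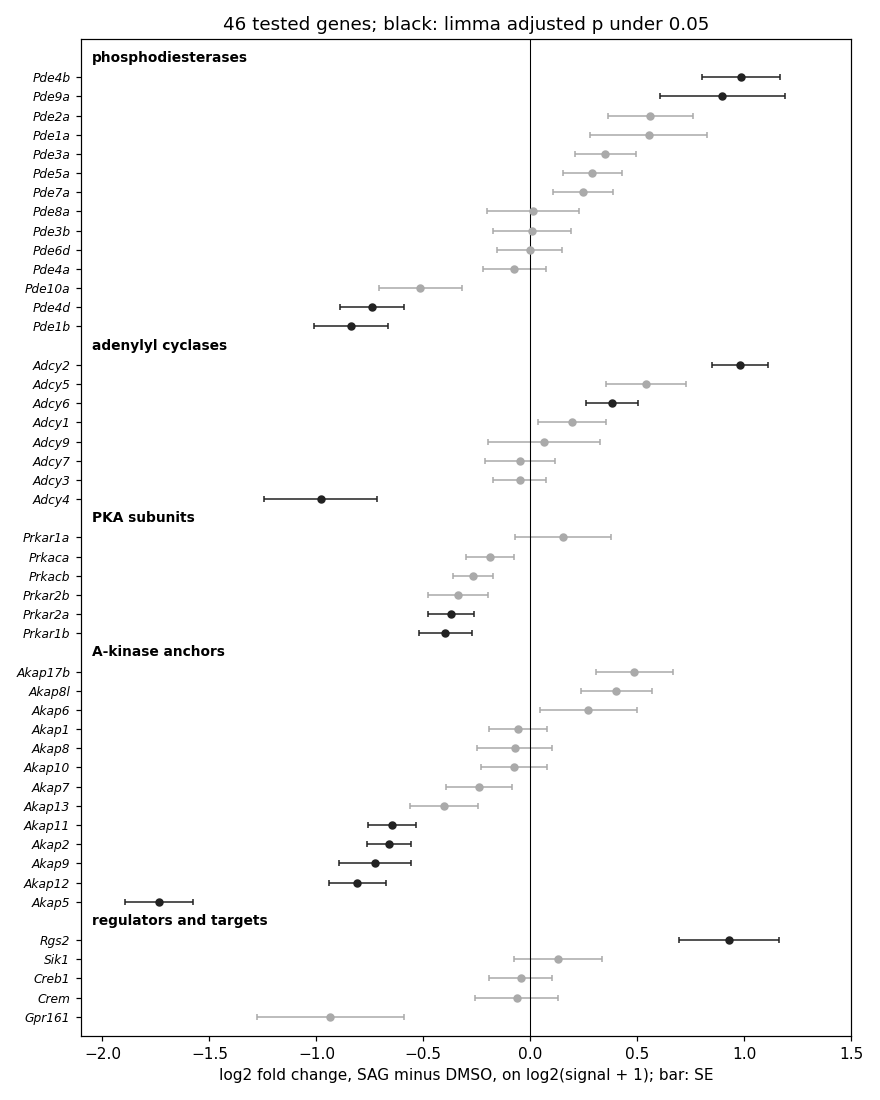
Log2 fold change (SAG minus DMSO, of log2(signal + 1), bars SE) of the 46 tested genes by family, with the genes that passed the limma test in black. All 5 anchors that passed lie left of 0, from -0.65 to -1.74, while phosphodiesterases and cyclases that passed lie on both sides.

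Among the A-kinase anchors 5 of 13 tested fell and 0 rose, with a median log2 fold change of -0.24. By limma 16.6% of all tested genes fell. Akap5 (chr12:76324891-76334153) encodes a scaffold that holds PKA, protein kinase C and calcineurin at the plasma membrane. On the log2(signal + 1) scale its log2 fold change was the largest in size of the 46. By mean signals the scarce Pde9a differed more (4.33-fold). Positions here are those of GENCODE M21 on GRCm38. The signal of Akap5 was 5.60, 4.34 and 4.88 in SAG replicates 1 to 3, against 16.9, 20.8 and 18.6 in DMSO replicates 1 to 3. Every SAG library lay far below every DMSO library, and the group means of 4.94 ± 0.632 with SAG and 18.8 ± 1.98 with DMSO differed 3.80-fold (log2 fold change -1.74, SE 0.16; limma, BH-adjusted p = 9.45e-05).

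The most abundant anchors fell as well. Akap12 (chr10:4266380-4359470), also called gravin or SSeCKS, is a membrane scaffold for PKA and protein kinase C. Its signal was 326, 370 and 256 with SAG, against 554, 526 and 572 with DMSO. The groups did not overlap, and the means of 317 ± 57.5 with SAG and 550 ± 23.5 with DMSO gave a log2 fold change of -0.81 (SE 0.13; limma, BH-adjusted p = 0.00227). Akap2 (chr4:57717657-57896984), which links PKA to actin, had 407, 413 and 341 with SAG and 604, 626 and 603 with DMSO (log2 fold change -0.66, SE 0.10; limma, BH-adjusted p = 0.00165). Here too no SAG library reached the DMSO range. The Akap2 row cannot be read as that gene alone: in GENCODE M21, 84.4% of its exon bases are shared with the fusion gene Pakap on the same strand, and its signal was 94.8% to 96.1% of that in the Pakap row in each library. Per kilobase of exon, Akap12 had a signal of 49.1 with SAG and 85.2 with DMSO and Akap2 one of 47.4 with SAG and 74.8 with DMSO. Akap1, next in order in both groups, was at 9.62 per kilobase with SAG and 10.02 with DMSO.

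Akap9 and Akap11 completed the set that fell. Akap9 (chr5:3928054-4081310) encodes a very large anchor of the Golgi and the centrosome and Akap11 (chr14:78492246-78536808) one that also binds protein phosphatase 1 and glycogen synthase kinase 3. Akap9 had signals of 58.2, 61.4 and 38.1 with SAG, against 85.02, 85.4 and 87.3 with DMSO (log2 fold change -0.73, SE 0.17; limma, BH-adjusted p = 0.0107). Akap11 had 60.2, 49.8 and 52.7 with SAG, against 81.4, 91.8 and 82.8 with DMSO (log2 fold change -0.65, SE 0.11; limma, BH-adjusted p = 0.00294). For neither gene did the groups overlap. SAG replicate 3 was the lowest library for Akap9, and without it the log2 fold change was -0.52.

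The other 8 tested anchors did not pass. Akap13 averaged 154 ± 35.3 with SAG and 200 ± 9.85 with DMSO (log2 fold change -0.40, SE 0.16; limma, BH-adjusted p = 0.0849), and without SAG replicate 3 it was -0.20 and passed (0.0241). Akap8l and Akap17b had every SAG library above every DMSO library and log2 fold changes of 0.40 and 0.49, with limma BH-adjusted p = 0.0934 and 0.0684. Akap8l passed without SAG replicate 3 (log2 fold change 0.56; limma, BH-adjusted p = 6.57e-04) and in DESeq2 (0.0358), and Akap17b passed in edgeR (0.0436) and DESeq2 (0.0282). Akap1, the anchor of the mitochondrial outer membrane, averaged 42.3 ± 5.39 with SAG and 44.0 ± 5.15 with DMSO, with SAG and DMSO libraries interleaved. Akap6, Akap7, Akap8 and Akap10 ranged in log2 fold change from -0.24 to 0.27. The sperm tail anchors Akap3 and Akap4 had 0 reads in all 6 libraries, where a count of 0 allows a signal of up to 0.318 to 0.385 in the SAG libraries and 0.124 to 0.169 in the DMSO libraries (3 reads, counting error only). Akap14 had 0 reads with SAG and a signal of 0.0462 to 0.169 with DMSO, under that limit for the SAG libraries.

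Other cell types' markers were checked beside the anchors, since several anchors are also known from contractile cells. All 7 markers of smooth muscle, vascular or peritubular, fell by limma at that threshold with all libraries, where 16.6% of all genes fell. Their summed signal was 13169 to 14484 with SAG and 20897 to 21839 with DMSO. One of them, Des, had overlapping groups and did not pass in edgeR or DESeq2 (BH-adjusted p = 0.0612 and 0.0505). Of 17 alternatives, Des passed in 6, Myh11 in 10, and Acta2 and Tagln in 16 each. Of 10 interstitial progenitor and stromal markers 6 rose and 0 fell, beside 12.9% and 16.6% of all genes by limma. The sums of the 10 were 24584, 28242 and 47661 in SAG replicates 1 to 3 and 19338 to 20750 with DMSO. The high sum of SAG replicate 3 holds a signal of 33152 for Col1a1, a collagen gene that did not pass. The part of these shifts in the fall of the anchors was not tested. Germ cell, macrophage and erythroid marker sums were at most 3.52 in any library, and the germ cell markers Pou5f1, Mael and Dppa3 were at 0 in all of them. The summed signal of 6 endothelial markers was 35.2 to 50.1 with SAG and 31.3 to 38.1 with DMSO. That of 6 Sertoli cell markers was 29.9 to 31.3 with SAG and 31.1 to 38.2 with DMSO. Each sum came mostly from 1 gene, and 3 markers of each list had means under 1. Cdh5 had 28.3 to 43.8 with SAG and 25.1 to 31.2 with DMSO, and Sox9 23.2 to 26.6 with SAG and 27.1 to 34.2 with DMSO. The summed signal of 7 fetal Leydig markers was 143, 142 and 272 in SAG replicates 1 to 3, against 166 to 178 with DMSO. Of these Nr5a1 averaged 104 ± 4.86 with SAG and 119 ± 4.08 with DMSO. Nr5a1, Star, Fdx1 and Cyp11a1 were above the filter without passing the test with all libraries, and Insl3 and Cyp17a1 were under a mean signal of 1. Star lay below the DMSO libraries in SAG replicates 1 and 2 and above them in SAG replicate 3. Without SAG replicate 3 Star was lower (log2 fold change -1.01; limma, BH-adjusted p = 6.52e-07), as was Nr5a1 (-0.20 and 0.0344). Fdx1 and Cyp11a1 did not pass there either (limma, BH-adjusted p = 0.965 and 0.408). Hsd3b1 rose (log2 fold change 2.69; limma, BH-adjusted p = 0.0193). Its signal was 3.73, 2.01 and 30.8 in SAG replicates 1 to 3, against 0, 0.370 and 0.226 with DMSO. Hsd3b1 was thus tested only because of its SAG values, most of whose sum came from SAG replicate 3. Without that library its log2 fold change was 1.67, and it passed in 14 of 17 alternatives.

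All 6 PKA subunit genes were expressed, and the regulatory subunits Prkar1b and Prkar2a fell. By limma 2 of 6 fell and 0 rose, beside 16.6% and 12.9% of all genes. Prkar2a (chr9:108689314-108750436), the common type II subunit that binds most anchors, had 145, 131 and 114 with SAG, against 167, 170 and 167 with DMSO. The groups were separate, and the difference was a log2 fold change of -0.37 (SE 0.11; limma, BH-adjusted p = 0.0292). Prkar1b (chr5:139017306-139150001), a type I subunit best known from brain, had 28.0, 26.2 and 31.6 with SAG, against 40.0, 34.6 and 39.3 with DMSO (log2 fold change -0.40, SE 0.12; limma, BH-adjusted p = 0.0375). Both calls ended with scaling by library totals (limma, BH-adjusted p = 0.175 for Prkar2a and 0.130 for Prkar1b), and when any 1 DMSO library was left out (0.106 to 0.113 and 0.0712 to 0.150). That of Prkar1b also ended without SAG replicate 1 (0.0767) or SAG replicate 2 (0.0826) and with a replicate block (0.0531), and that of Prkar2a in limma without a trend (0.0607).

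Neither catalytic subunit passed, nor did the other type II regulatory subunit. Prkacb (chr3:146729574-146812990), which encodes the beta catalytic subunit, had 100.1, 90.6 and 97.6 with SAG, against 115, 117 and 115 with DMSO (log2 fold change -0.27, SE 0.09; limma, BH-adjusted p = 0.0572). Its groups did not overlap, although it missed the threshold. Prkaca (chr8:83972993-83996443), the main catalytic subunit, had 113, 109 and 90.8 with SAG, against 120, 112 and 122 with DMSO (log2 fold change -0.19, SE 0.11; limma, BH-adjusted p = 0.230). The second type II regulatory gene Prkar2b (chr12:31958476-32061296) averaged 42.4 ± 6.50 with SAG and 53.7 ± 5.78 with DMSO (log2 fold change -0.34, SE 0.14; limma, BH-adjusted p = 0.0954).

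Prkar1a (chr11:109649405-109669656), the type I regulatory subunit found in most tissues, was decided by 1 library. Its signal was 324, 306 and 614 in SAG replicates 1 to 3, against 340, 352 and 370 in DMSO replicates 1 to 3. SAG replicates 1 and 2 lay below the DMSO libraries and SAG replicate 3 lay far above them. The log2 fold change was 0.15 (SE 0.23; limma, BH-adjusted p = 0.644) with all libraries and -0.17 without SAG replicate 3 (limma, BH-adjusted p = 0.0393). Without that library 5 of the 6 subunits were lower, all but Prkaca, where 27% of all genes were lower. In SAG replicate 3 the summed signal of 3 adrenal cortex markers was 60.4, against 3.18 to 6.92 in the other SAG libraries and 1.82 to 2.31 with DMSO; its part in the Prkar1a level was not tested.

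Per kilobase of exon the order of the subunits was the same in both groups. Prkar1a led with a signal per kilobase of 96.0 with SAG and 81.9 with DMSO, followed by Prkaca at 41.8 with SAG and 47.5 with DMSO and Prkar2a at 20.4 with SAG and 26.3 with DMSO. Prkar2b and Prkacb, at 11.6 and 10.95 with SAG and 14.7 and 13.2 with DMSO, were close to each other, and Prkar1b was lowest at 7.504 with SAG and 9.96 with DMSO. Type II genes made up 30.5%, 28.1% and 16.3% of the regulatory signal per kilobase in SAG replicates 1 to 3, against 30.7% to 31.1% in the DMSO libraries. In SAG replicate 3 Prkar1a took 62.5% of the PKA signal per kilobase, against 42.8% and 43.7% in the other SAG libraries and 41.4% to 43.0% with DMSO.

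**Figure D2:**
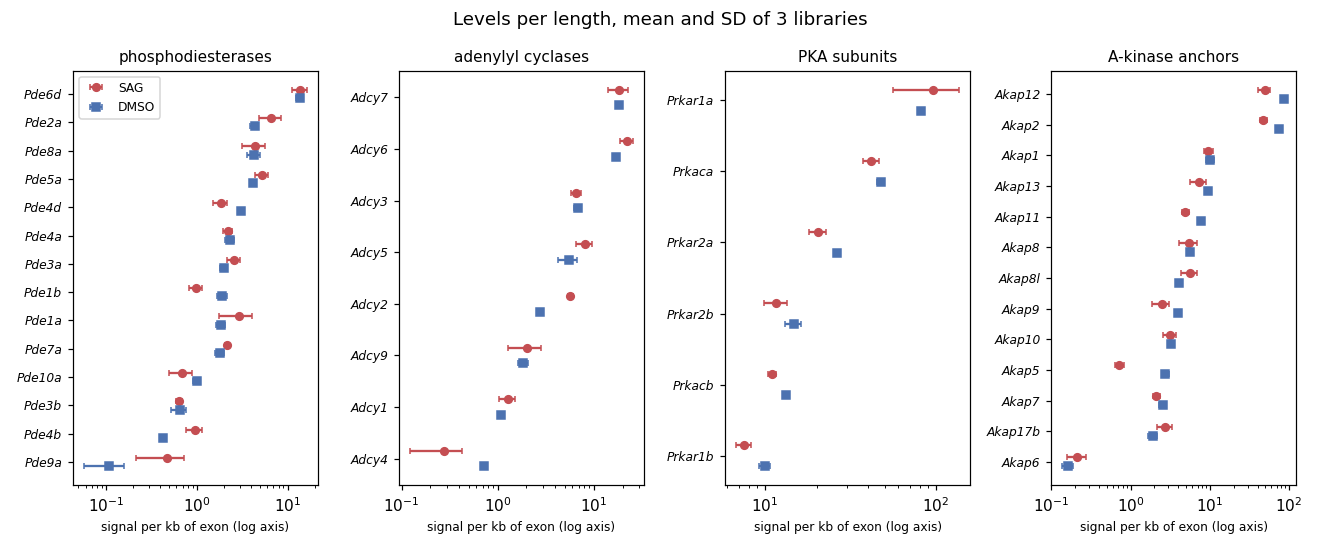
Signal per kilobase of exon (log axis) of the tested genes of each family, ordered by the DMSO mean, with SAG circles above DMSO squares and bars for the SD of 3 libraries. Prkar1a, Adcy7 with Adcy6, and Akap12 with Akap2 head their families, and Akap5 and Adcy4 show the widest gaps between groups among the genes that fell.

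Of the 8 adenylyl cyclases tested, 2 rose and 1 fell, beside 12.9% and 16.6% of all genes by limma, with a median log2 fold change of 0.13. Adcy2 (chr13:68620043-68999541) encodes a cyclase that G protein beta-gamma subunits stimulate. Its signal was 24.3, 25.6 and 22.6 with SAG, against 10.8, 12.2 and 12.3 with DMSO. The means of 24.2 ± 1.52 with SAG and 11.8 ± 0.797 with DMSO were 2.05-fold apart with no overlap (log2 fold change 0.98, SE 0.13; limma, BH-adjusted p = 7.45e-04). Adcy4 (chr14:55769057-55784095), a close relative of Adcy2, went the other way with a much lower signal of 1.43, 1.91 and 0.514 with SAG, against 3.31, 3.24 and 3.50 with DMSO. These rest on 13, 18 and 4 reads in the SAG libraries and 80, 70 and 62 in the DMSO libraries. The log2 fold change was -0.98 (SE 0.26; limma, BH-adjusted p = 0.0215), and the call ended without any 1 DMSO library (0.0701 to 0.0817).

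Adcy6 and Adcy7 were the most abundant cyclases per length, at 22.2 and 18.3 per kilobase with SAG and 16.9 and 18.6 with DMSO. Adcy6 (chr15:98589973-98610076), which calcium inhibits, had 127, 152 and 173 with SAG, against 114, 114 and 117 with DMSO (log2 fold change 0.38, SE 0.12; limma, BH-adjusted p = 0.0403). All SAG libraries were above all DMSO libraries, but the call ended once trends with length and GC were taken out (0.123), without SAG replicate 2 (0.0782), without any 1 DMSO library (0.121 to 0.134), and with no filter (0.0544) or no trend (0.0758). Adcy5, the closest relative of Adcy6, averaged 57.8 ± 10.7 with SAG and 39.6 ± 8.90 with DMSO with overlapping groups (log2 fold change 0.54, SE 0.19; limma, BH-adjusted p = 0.0556). It passed without SAG replicate 3 (0.00659), in edgeR (0.0435) and in DESeq2 (0.0187). Adcy7 averaged 123 ± 29.2 with SAG and 125 ± 3.72 with DMSO, and its log2 fold change of -0.05 turned to 0.15 without SAG replicate 3, its lowest library, and to 0.09 with scaling by library totals. Adcy1, Adcy3 and Adcy9 had log2 fold changes of 0.19, -0.05 and 0.06 with overlapping groups. For Adcy3, 22.1% of exon bases lie opposite exons of Cenpo, and reads of these genes cannot be told apart without a stated strand setting. The same holds for Adcy6, with 8.92% of its exon bases opposite the antisense model Gm29331, and Adcy2, with 4.49% opposite Gm35161. Adcy8 was under the filter at a signal of 0.449 ± 0.373 with SAG and 0.415 ± 0.0726 with DMSO, and the soluble cyclase gene Adcy10, known from sperm, had 0 reads in every library.

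Among 14 phosphodiesterases tested 2 rose and 2 fell, beside 12.9% and 16.6% of all genes by limma. The cAMP-specific PDE4 genes moved apart. Pde4b (chr4:102087543-102607259) had signals of 9.89, 12.1 and 8.09 with SAG, against 4.76, 4.07 and 4.74 with DMSO. Every SAG library was above every DMSO library, and the means were 2.22-fold apart (log2 fold change 0.98, SE 0.18; limma, BH-adjusted p = 0.00404). Pde4d (chr13:108449948-109953461) had 24.6, 23.7 and 17.6 with SAG, against 36.0, 34.7 and 40.5 with DMSO (log2 fold change -0.74, SE 0.15; limma, BH-adjusted p = 0.00607). The third expressed member, Pde4a, averaged 16.8 ± 1.97 with SAG and 17.8 ± 2.12 with DMSO (log2 fold change -0.08), and Pde4c was at a mean signal of at most 0.0740 in either group.

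The make-up of the PDE4 pool differed accordingly. As shares of the PDE4 signal per kilobase, Pde4b held 17.8%, 20.6% and 18.5% in SAG replicates 1 to 3, against 7.80%, 6.54% and 7.60% in DMSO replicates 1 to 3. Pde4d held 38.9%, 35.6% and 35.4% with SAG, against 51.8%, 49.0% and 57.3% with DMSO. The ratio of Pde4b to Pde4d, which the scaling of a library cannot move, was 0.457 to 0.579 with SAG and 0.133 to 0.150 with DMSO. These shares restate the changes of the genes and carry no test of their own.

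The other phosphodiesterases that passed act on cGMP as well or alone. Pde1b (chr15:103503034-103530052), a calcium- and calmodulin-activated enzyme, had 5.93, 4.34 and 5.78 with SAG, against 9.90, 11.7 and 9.36 with DMSO (log2 fold change -0.84, SE 0.17; limma, BH-adjusted p = 0.00685). Its relative Pde1a had 21.9, 21.4 and 9.63 with SAG, against 10.3, 12.4 and 10.4 with DMSO, so SAG replicate 3 alone was not above the DMSO libraries. Its log2 fold change was 0.55 (limma, BH-adjusted p = 0.154), and 0.92 without SAG replicate 3 (1.3e-05). Pde9a (chr17:31386210-31476310), a cGMP-specific enzyme, was scarce, with 13, 25 and 7 reads in the SAG libraries and 14, 5 and 6 in the deeper DMSO libraries. Its signal of 1.66 ± 0.897 with SAG and 0.383 ± 0.179 with DMSO gave a log2 fold change of 0.90 (SE 0.29; limma, BH-adjusted p = 0.0444). That call ended without any 1 DMSO library (0.0895 to 0.143), under the block on replicate numbers (0.0529) and once trends with length and GC were taken out (0.0514), and without SAG replicate 1 or 2 the gene was under the filter.

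Without SAG replicate 3, 6 phosphodiesterases were higher and 2 lower by limma, where 19.7% and 27% of all genes were. Besides Pde4b and Pde9a the higher ones were Pde1a, Pde2a, Pde3a and Pde5a. Pde2a, which cGMP stimulates, had 46.1, 48.3 and 28.0 with SAG, against 27.6, 28.9 and 23.6 with DMSO. SAG replicate 3 alone overlapped the DMSO range, and the log2 fold change was 0.56 with all libraries (SE 0.20; limma, BH-adjusted p = 0.0592) and 0.80 without it. In GENCODE M21, 64.3% of the Pde2a exon bases are shared with the gene model Gm45837 on the same strand. Pde3a, which cGMP inhibits, averaged 32.7 ± 5.10 with SAG and 25.3 ± 2.25 with DMSO, and the cGMP-specific Pde5a 51.4 ± 8.69 with SAG and 41.4 ± 1.08 with DMSO, with limma BH-adjusted p = 0.0943 and 0.141 over all libraries.

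The cAMP-specific genes Pde7a and Pde8a and the cGMP-inhibited Pde3b had log2 fold changes of 0.25, 0.01 and 0.01, and Pde10a had one of -0.51 (limma, BH-adjusted p = 0.0723). Pde6d had the highest signal per kilobase of the family, 13.7 with SAG and 13.6 with DMSO, but its product is a chaperone of prenylated proteins and not a cyclic nucleotide phosphodiesterase. Among the enzymes proper Pde2a led with SAG at 6.64 per kilobase, and Pde2a, Pde8a and Pde5a lay within 4.22 to 4.34 with DMSO, closer than their spread. The 8 members under the filter were Pde1c, Pde4c, Pde6a, Pde6b, Pde6c, Pde7b, Pde8b and Pde11a, with means over all libraries of 0 to 0.688. Pde7b, among them, had 0.549, 0.212 and 0.128 with SAG, against 1.04, 0.555 and 0.790 with DMSO, and was not tested.

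**Figure D3:**
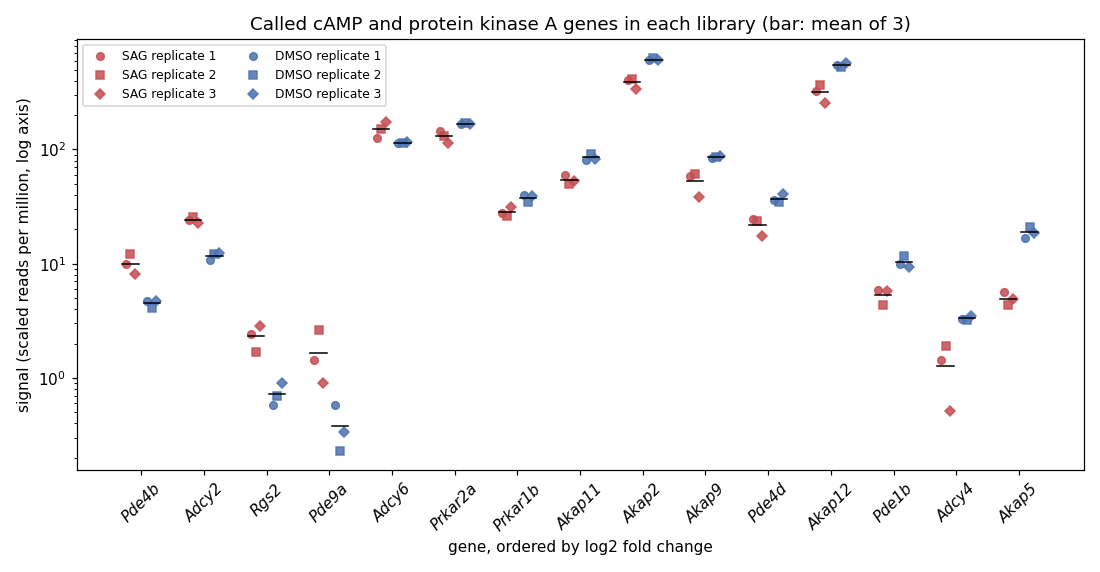
Signal in each library (log axis) of the 15 genes that passed the limma test, ordered by log2 fold change, with SAG in red left of DMSO in blue and a bar at each mean. In none of the 15 do the groups overlap, and the lowest signals are those of Pde9a, Rgs2 and Adcy4.

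Rgs2 (chr1:143999338-144004161) was the only one of the 5 single genes of the rule that passed the test in the full comparison. It encodes a regulator that shuts off G proteins, Gq above all, and that also binds adenylyl cyclases. Its signal was 2.42, 1.70 and 2.83 with SAG, against 0.580, 0.693 and 0.902 with DMSO, from 22, 16 and 22 reads with SAG and 14, 15 and 16 reads with DMSO. All SAG libraries were higher, and the means of 2.31 ± 0.573 with SAG and 0.725 ± 0.164 with DMSO were 3.19-fold apart (log2 fold change 0.93, SE 0.23; limma, BH-adjusted p = 0.0158). The call ended without DMSO replicate 1 (0.0727) or DMSO replicate 2 (0.0607). With a DMSO mean under 1, Rgs2 was tested only because of its SAG values.

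Gpr161 (chr1:165295789-165326745), the ciliary receptor that restrains Hedgehog signalling through cAMP, had 9.56, 12.5 and 3.47 with SAG, against 14.3, 17.01 and 15.1 with DMSO. Every SAG library lay below every DMSO library, but they scattered widely and the log2 fold change of -0.93 (SE 0.34) did not pass (limma, BH-adjusted p = 0.0668). Without SAG replicate 3 the log2 fold change was -0.46 and passed (0.0169), and it also passed without SAG replicate 2 (0.0261) and with a replicate block (0.0178). Sik1, a kinase gene that CREB induces and PKA restrains, had 26.5, 21.6 and 13.9 with SAG, against 17.3, 18.2 and 19.2 with DMSO. SAG replicates 1 and 2 were above the DMSO libraries and SAG replicate 3 below them, so that the log2 fold change was 0.13 (limma, BH-adjusted p = 0.673), and 0.38 without SAG replicate 3 (0.0215).

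The transcription factor genes Creb1 and Crem did not pass the test. Creb1, whose product PKA phosphorylates, averaged 39.8 ± 7.24 with SAG and 40.7 ± 2.69 with DMSO (log2 fold change -0.04, SE 0.15; limma, BH-adjusted p = 0.844). Crem, which also gives rise to the cAMP-induced repressor ICER from an internal promoter, averaged 5.07 ± 0.405 with SAG and 5.42 ± 1.22 with DMSO (log2 fold change -0.06, SE 0.20; limma, BH-adjusted p = 0.829). Counts by gene do not separate ICER from the longer Crem transcripts. The groups of both genes were interleaved.

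The promoter sequences were searched for the cAMP response element, since CREB binds it and several genes of this machinery are known to answer to cAMP. The window was the 250 bases before each RefSeq start site on GRCm38.p6, and 47 of the 59 genes had at least 1 window, 90 windows in all. The full element TGACGTCA, which reads the same on both strands, occurred in 1 of the 90 windows (1.11%), one of Prkar1a, against 1.55% of all 32851 windows. The shorter core TGACG, read on both strands and contained in the full element, occurred in 14 of the 90 windows (15.6%), against 17.8% of all. The Gli motif GACCACCCA, on both strands, occurred in 0 of the 90 and in 0.225% of all windows. The genes' share was thus close to that of promoters at large. A match is a run of letters and not a measured binding site.

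Of the 15 genes that passed, 11 had a window and 4 held the core, beside 12 of all 47 machinery genes with a window. The 4 were Rgs2, Akap11, Pde4b and Prkar1b. Their windows are shown with that of Prkar1a, which holds the full element, chosen after the matches were known, with capitals for each match to TGACG or its reverse complement. The Rgs2 window is chr1:144004150-144004399 on the minus strand, with matches starting 185 and 67 bases before the start site. The Akap11 window is chr14:78536861-78537110 on the minus strand, the Pde4b window chr4:102421305-102421554 on the plus strand, the Prkar1b window chr5:139150002-139150251 on the minus strand and the Prkar1a window chr11:109650699-109650948 on the plus strand. Each reads 5′ to 3′ along the gene's strand.
Rgs2: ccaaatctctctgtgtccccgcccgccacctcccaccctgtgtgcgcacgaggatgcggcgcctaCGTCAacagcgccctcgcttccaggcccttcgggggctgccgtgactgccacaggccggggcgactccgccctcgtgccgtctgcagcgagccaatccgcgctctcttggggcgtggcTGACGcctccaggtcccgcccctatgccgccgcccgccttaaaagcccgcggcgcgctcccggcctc
Akap11: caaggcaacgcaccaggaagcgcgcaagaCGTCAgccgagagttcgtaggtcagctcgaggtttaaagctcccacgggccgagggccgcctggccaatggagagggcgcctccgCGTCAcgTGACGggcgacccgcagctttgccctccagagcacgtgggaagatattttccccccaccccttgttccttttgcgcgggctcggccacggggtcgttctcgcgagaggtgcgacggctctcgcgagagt
Pde4b: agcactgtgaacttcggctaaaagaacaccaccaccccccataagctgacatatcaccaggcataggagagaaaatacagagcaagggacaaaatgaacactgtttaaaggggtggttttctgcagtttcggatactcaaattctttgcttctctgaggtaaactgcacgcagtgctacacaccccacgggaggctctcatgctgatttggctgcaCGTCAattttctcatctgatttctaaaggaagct
Prkar1b: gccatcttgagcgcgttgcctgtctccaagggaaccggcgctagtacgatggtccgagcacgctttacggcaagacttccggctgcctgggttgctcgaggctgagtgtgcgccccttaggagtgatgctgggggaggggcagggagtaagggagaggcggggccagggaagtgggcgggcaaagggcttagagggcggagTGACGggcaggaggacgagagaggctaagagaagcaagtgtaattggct
Prkar1a: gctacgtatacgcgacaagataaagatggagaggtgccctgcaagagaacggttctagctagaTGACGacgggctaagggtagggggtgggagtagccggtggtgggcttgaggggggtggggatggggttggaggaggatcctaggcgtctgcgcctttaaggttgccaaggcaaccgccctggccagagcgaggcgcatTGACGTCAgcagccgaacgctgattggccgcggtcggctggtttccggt
Rgs2 and Pde4b rose and Akap11 and Prkar1b fell, so genes with the core moved in both directions. Pde4b, Akap11 and Prkar1b have further start sites in RefSeq, whose windows held no match to the core. Some further windows of Prkar1a held it. Counts by gene do not say which start site was used.

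The genes around the machinery gave 18 that rose and 8 that fell of 65 tested, from 84 listed, beside 12.9% and 16.6% of all genes by limma. Without SAG replicate 3 the counts were 22 and 16, beside 19.7% and 27% of all genes. The inhibitors of PKA rose. Pkia, which encodes a small protein that blocks the catalytic subunit and carries it out of the nucleus, had 73.8, 68.6 and 83.9 with SAG, against 37.5, 39.7 and 39.5 with DMSO, 1.94-fold apart (log2 fold change 0.93, SE 0.11; limma, BH-adjusted p = 4.38e-04). Its relative Pkig had 59.1, 60.3 and 66.1 with SAG, against 37.7, 35.6 and 37.7 with DMSO (log2 fold change 0.72, SE 0.10; limma, BH-adjusted p = 0.00116). For both genes all SAG libraries lay well above all DMSO libraries. The third inhibitor gene, Pkib, had a mean signal of 0.0138 over all libraries.

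Among listed genes for proteins that can anchor PKA but do not carry the Akap name, 5 fell and 1 rose. By limma 16.6% of all tested genes fell and 12.9% rose. Map2, a microtubule protein that binds type II PKA, fell to 205 ± 26.2 with SAG, against 447 ± 23.2 with DMSO (log2 fold change -1.13, SE 0.11; limma, BH-adjusted p = 1.63e-04). Nbea (neurobeachin), Msn (moesin), Arfgef2 and Ezr (ezrin) fell with log2 fold changes of -0.99, -0.87, -0.55 and -0.50, while Wasf1, an actin regulator also called WAVE1, rose by 0.55 on that scale. Of the effectors other than PKA, the cAMP-binding Popeye gene Popdc2 fell (log2 fold change -0.68). The Epac gene Rapgef3 averaged 8.68 ± 3.23 with SAG and 4.49 ± 0.983 with DMSO without passing (log2 fold change 0.77; limma, BH-adjusted p = 0.0582). Rapgef3 passed without SAG replicate 3 (log2 fold change 0.67; limma, BH-adjusted p = 0.0263), in edgeR (0.0360) and in DESeq2 (0.0109). Over the whole list of effectors, inhibitors and anchors 3 of 12 tested rose and 6 fell, beside the same 12.9% and 16.6% of all genes.

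Receptors that act through Gs were few, with 7 of 18 listed genes over the filter. Of these 4 rose and 1 fell, beside 12.9% and 16.6% of all genes by limma. Adora2b, an adenosine receptor gene, had 3.95, 4.98 and 5.01 with SAG, against 1.74, 0.693 and 1.02 with DMSO (log2 fold change 1.42, SE 0.24; limma, BH-adjusted p = 0.00235). Calcrl and Ramp1 were counted separately, although together they form the receptor for calcitonin gene-related peptide. They rose by 0.85 and 0.72 on the log2 scale, and Pth1r, the parathyroid hormone receptor gene, by 0.38. Adcyap1r1, the receptor gene for the peptide PACAP, was the most abundant of them and fell to 66.2 ± 5.15 with SAG, against 107 ± 11.5 with DMSO (log2 fold change -0.69, SE 0.11; limma, BH-adjusted p = 0.00241). The luteinizing hormone receptor gene Lhcgr had 0 reads in all libraries.

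Of 8 G protein alpha subunit genes tested 1 rose and 0 fell, beside 12.9% and 16.6% of all genes by limma. The 1 that rose was Gnai1, which encodes an inhibitory subunit (1.52-fold, log2 fold change 0.57, SE 0.15). The more abundant inhibitory genes Gnai2 and Gnai3 had every SAG library below every DMSO library (log2 fold changes -0.35 and -0.19). Neither passed with all libraries, but both were lower without SAG replicate 3 (limma, BH-adjusted p = 0.0199 and 0.00333), where 27% of all genes were. Gnas, the gene for the stimulatory subunit, averaged 1444 ± 72.2 with SAG and 1397 ± 53.6 with DMSO (log2 fold change 0.05; limma, BH-adjusted p = 0.739). Of 11 genes of CREB relatives, coactivators and salt-inducible kinases 1 rose and 1 fell, beside 12.9% and 16.6% of all genes. Crtc2, a CREB coactivator, rose (log2 fold change 0.58) and Creb5 fell (-1.06). Among 14 tested genes of a list drawn up here as CREB targets, 5 rose (35.7%) and 0 fell, beside 12.9% and 16.6% of all genes. The 5 were Fos (log2 fold change 1.37), Cebpb (1.26), Crebrf (0.89), Id2 (0.75) and Gem (0.67). Whether CREB induces them in these cells was not tested. Without SAG replicate 3 the list had 5 higher and 4 lower (35.7% and 28.6%), beside 19.7% and 27% of all genes. The 4 were Dusp1 (log2 fold change -0.52), Nfil3 (-0.40), Junb (-0.27) and Cited2 (-0.26). Several of the genes that rose also answer to other signals, and the well-known targets Nr4a1 and Per1 had log2 fold changes of -0.06 and 0.04 with limma BH-adjusted p = 0.798 and 0.907. Among the 13 Hedgehog genes tested 4 rose and 0 fell, beside 12.9% and 16.6% of all genes. The 4 were Gli1, Ptch1 (log2 fold change 1.44), Smo (0.32) and Arrb1 (0.76), the gene of an arrestin. The casein kinase and glycogen synthase kinase genes of the list, whose products act on Gli proteins after PKA, had log2 fold changes between -0.25 and -0.03 and none passed with all libraries. Without SAG replicate 3 Gsk3b (log2 fold change -0.31, limma BH-adjusted p = 0.00235) and Csnk1e (-0.23 and 0.0193) were lower. The list then had 6 higher and 2 lower, beside 19.7% and 27% of all genes. Of the 26 neighbours that passed with all libraries, 15 passed under every alternative that tested them. The calls of Gnai1, Ramp1, Crtc2 and Gem ended only without 1 or more of the DMSO libraries, with BH-adjusted p of at most 0.0887, 0.0533, 0.0828 and 0.0845 by limma. Those of Pth1r, Calcrl, Popdc2, Ezr, Wasf1, Creb5 and Smo also ended under other settings, with a highest value of 0.581 for Pth1r once trends with length and GC were taken out.

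**Figure D4:**
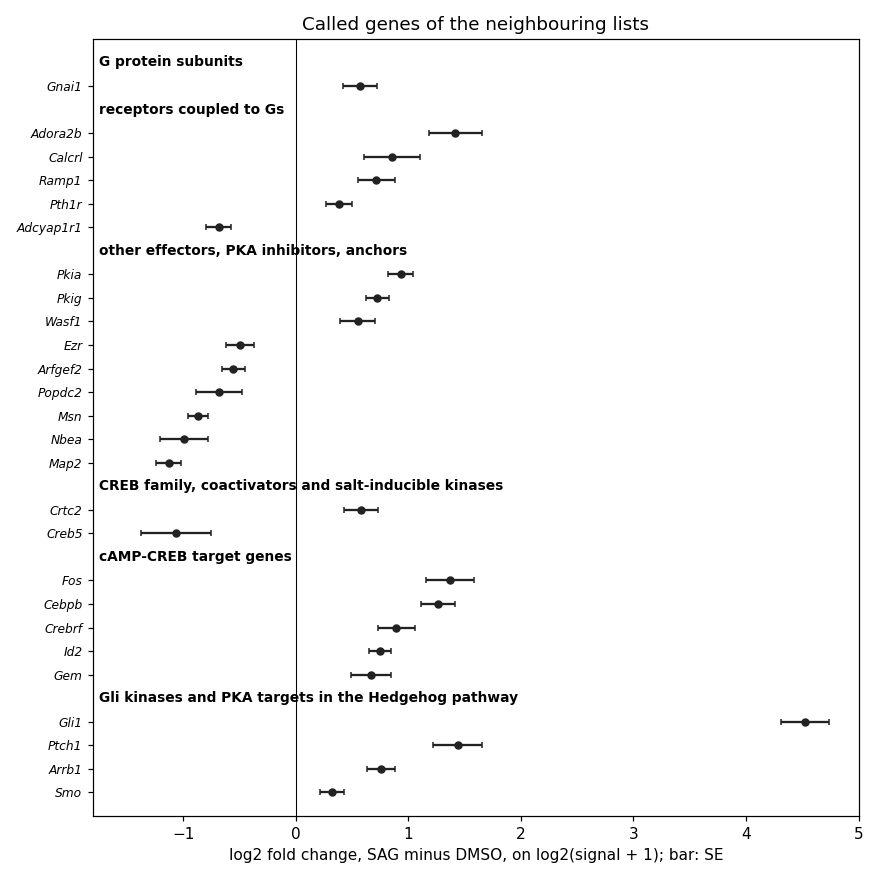
Log2 fold change (SAG minus DMSO, of log2(signal + 1), bars SE) of the 26 genes of the neighbouring lists that passed the limma test, grouped by list. The PKA inhibitors Pkia and Pkig and all 5 genes of the CREB target list that passed lie right of 0, and the anchors Map2, Nbea, Msn, Arfgef2 and Ezr lie left of it.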

How the data were processed

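RNA-seq was done on 3 SAG and 3 DMSO libraries. The submitters' processing notes list GRCm38 (mm10), STAR, Trim Galore 0.6.4, edgeR 2.2.1 and featureCounts 2.0.0, and annotation and strand setting are not given in the sources used here. Deposited by the authors was a signal per gene symbol, named CPM, with column sums of 932712 to 1055620. In each column 100% of the values above 0 were whole multiples of 1 step (tolerance 0.01), which gave back the reads. The 92 spike-in rows were left out. Columns were matched to samples by treatment and replicate number. Genes with a mean signal of 1 or more (12550) entered limma 3.58.1 as log2(signal + 1) (group term, eBayes with trend, R 4.3.3), with p-values adjusted over all of them by Benjamini-Hochberg at 0.05. A log2 fold change is the SAG minus the DMSO mean on that scale, which understates those of low genes, and other folds are of mean signals. Lengths are merged GENCODE M21 exons, and promoters are from RefSeq GRCm38.p6. Simulated counts were used to test the limma step. Alternatives were other pseudocounts (0.5, 0.1), filters (none, 5), scaling by library total, limma robust or without trend, a replicate block, edgeR 4.0.16 and DESeq2 1.42.0 on recovered reads, length and GC trends removed, and each library left out. Named genes were those that passed, all PKA subunits, the 5 single genes, the most abundant member per length in each family, and neighbours that passed, and others were named after their values were seen. The members and lists were chosen with earlier results of these data known. The listed gene Grk2 was not analysed here. Intervals and limits on reads cover counting error only.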

Additional observations from a re-analysis of the deposited data

How the results depend on the processing

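The 9 genes Akap2, Akap5, Akap9, Akap11, Akap12, Adcy2, Pde1b, Pde4b and Pde4d passed under every alternative tried. The count of machinery genes that rose, 5, was 3 with a filter at 5, 10 with scaling by library total, 8 with edgeR, 11 with DESeq2 and 2 (without DMSO replicate 1) to 12 (without SAG replicate 3) with each library left out, and the count that fell, 10, was 7 to 15. Scaling by library total moved the median over all genes by 0.13 (log2). The share of higher calls went from 33.3% to 55.6% in the machinery and from 43.8% to 66.2% over all genes. Of the 46 genes 9 changed sign, none of them among the 15 that passed. Neighbour genes that fell, 8, were 5 with scaling by library total, 13 with length and GC trends removed and 5 (without DMSO replicate 1 or 3) to 16 (without SAG replicate 3) with each library left out, and those that rose, 18, were 10 (without DMSO replicate 3) to 22. Over all genes 1625 rose and 2084 fell in the main fit. With a filter at 5 these counts were 1342 and 1962, and with scaling by library total 2473 and 1260. They were 1913 and 1820 with edgeR, 2138 and 1965 with DESeq2, and 1535 and 2101 with length and GC trends removed. With each library left out 901 to 2463 rose and 1086 to 3373 fell.

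Among genes that did not pass, log2 fold changes near 0 changed sign. With scaling by library total they were 0.094 for Creb1, 0.054 for Crem, 0.13 for Pde6d and 0.094 for Adcy7; with edgeR 0.0037 for Creb1, 0.043 for Pde6d and 0.021 for Adcy7; with DESeq2 0.0050, 0.045 and 0.020 for these; with length and GC trends removed 0.20 for Creb1 and 0.067 for Crem. With each library left out they ran from -0.17 to 0.33 for Prkar1a, -0.14 to 0.11 for Creb1, -0.23 to 0.033 for Crem, -0.065 to 0.38 for Sik1, -0.14 to 0.13 for Pde6d and -0.19 to 0.15 for Adcy7. The causes were not tested. Over the 51 named genes 755 alternative values kept their direction and side of the threshold, 76 lost the call, 8 gained it in the same direction and 21 changed sign, of which Prkar1a without SAG replicate 3 passed the test (limma, BH-adjusted p = 0.0393).

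The replicate numbers carry no stated pairing, and same-numbered libraries did not deviate together (correlations of -0.02, 0.03 and -1.7e-04; 2 of 6 libraries correlated best with their own number). With a replicate block 6 machinery genes rose and 11 fell, and over all genes 1549 rose and 1976 fell. Reads limit the scarce genes most: DMSO libraries held 2.67 times the reads of SAG libraries on average.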
